A study of Mus musculus with 6 samples.

Results

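Tumor endothelial cells, the cells that line blood and lymphatic vessels, were examined here in a single-cell RNA sequencing experiment on subcutaneous tumors grown from 6694c2vTRP1 cells, a mouse pancreatic cancer line of the KPC type. Members were chosen by their own transcripts, as barcodes with at least 1 unique molecular identifier (UMI, a count of 1 captured RNA molecule) of Pecam1, at least 1 of Cdh5 and at least 1 over Egfl7 and Kdr. Barcodes with any Ptprc, with more than 3 UMIs over Krt8 and Krt18 or over C1qa, C1qb and C1qc, or with more than 2 of Col1a2 were left out, which sets aside leukocytes, tumor epithelial cells, macrophages and fibroblasts. This rule found 310 cells among 60351 barcodes that carried at least 1000 genes, at most 10% mitochondrial UMIs and a single dominant hashtag, out of 130444 barcodes in all.

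C57BL/6 mice had been inoculated with 250000 tumor cells and had received 2 intraperitoneal doses from day 8 of PBS, of mono-IL10 (an interleukin-10 built as a monomer, 26 µg per mouse) or of IL10/2-Trikine (a fusion that also binds the beta chain of the interleukin-2 receptor, 30.6 µg per mouse). Tumors were taken on day 14, CD45+ cells were isolated with beads, the cells of every mouse received a hashtag antibody of their own, and the mice of a treatment were pooled into 1 droplet library. Each of the 3 libraries held 5 hashtags, so the mouse was the replicate (n = 5 per group) and the PBS library held 94 of the endothelial cells, the mono-IL10 library 72 and the IL10/2-Trikine library 144. Treatment and library cannot be told apart in this design, and every tumor came from the same cell line. The isolation was aimed at CD45+ cells, so the endothelial cells described here are cells that came through a procedure meant for leukocytes.

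Endothelial cells hold together through the cadherin encoded by Cdh5, read vascular endothelial growth factor through the receptors Kdr and Flt1, and differ along the vessel tree, with tip cells at growing sprouts and arterial, capillary, venous and lymphatic cells behind them. In tumors they set how blood flows, and through selectins, adhesion molecules and chemokines they take part in the entry of leukocytes from the blood. They respond to interferons by raising antigen presentation genes, and the capillary cells of some tissues take up fatty acids through Cd36 and the lipoprotein lipase carrier Gpihbp1.

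The 4 genes of the rule describe how the cells were chosen and are not a finding. The median cell held 10 UMIs of Pecam1, 12 of Cdh5, 7 of Egfl7 and 4 of Kdr, and 263 of the 310 cells held all 4 genes. Before the exclusions 683 barcodes had met the 3 positive criteria, of which 261 held Ptprc, 221 more than 3 UMIs of the C1q genes, 115 more than 3 of Krt8 and Krt18, and 46 more than 2 of Col1a2. Few cells lay at the limits, with 7 at 1 UMI of Pecam1, 9 at 1 of Cdh5, 15 at 1 over Egfl7 and Kdr, 1 at 3 of the keratins, 4 at 3 of the C1q genes and 4 at 2 of Col1a2. Just outside, and members otherwise, were 0 barcodes without Pecam1, 10 without Cdh5, 6 without Egfl7 and Kdr, 18 with 1 UMI of Ptprc, 3 with 4 of the keratins, 2 with 4 of C1q and 2 with 3 of Col1a2. A stricter gate with no keratin, C1q or Col1a2 UMI kept 226 of the cells.

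The libraries differed in depth. The median endothelial cell held 14823.5 UMIs in PBS and 18892 in mono-IL10 but 6530.5 in IL10/2-Trikine, and the whole IL10/2-Trikine library was shallower too, with a median of 5792 UMIs per filtered barcode against 8140 and 10224.5. The cells were spread unevenly over mice, with 7, 49, 16, 11 and 11 in the 5 PBS mice, 19, 17, 5, 7 and 24 in the mono-IL10 mice and 50, 47, 6, 5 and 36 in the IL10/2-Trikine mice. The libraries shared 408 to 700 barcode sequences, but no endothelial cell of a library had its barcode among the endothelial cells of another. Levels below are CPM, the counts of a gene per 1000000 UMIs of a mouse's summed endothelial cells, given as mean ± SD over the 5 mice of a group, and differences were tested with edgeR's quasi-likelihood test on those sums, with Benjamini-Hochberg adjusted p-values over all 5043 genes tested.

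The label held against genes that the rule had not used. Of 25 further endothelial genes fixed as an identity list, all 25 passed the filter on low counts. Plvap, which forms the diaphragms of fenestrated vessels, stood at 1265 ± 537 in PBS, 1204 ± 360 with mono-IL10 and 1358 ± 576 with IL10/2-Trikine, and at 0.462 or less in the tumor epithelial and macrophage gates, the reference cells of the same mice. These gates were set as barcodes with at least 10 UMIs of Krt8 and Krt18 without Ptprc (11840 barcodes) and with at least 10 of the C1q genes with Ptprc (26126 barcodes), and a fibroblast gate asked for at least 5 of Col1a2 (746 barcodes). The epithelial gate also asked for no Pecam1 or Cdh5, and the macrophage and fibroblast gates for no Cdh5. Leaving out such barcodes can widen the gaps given here for other endothelial genes. Flt1, a receptor that binds and holds back vascular endothelial growth factor, stood at 1027 ± 418, 1600 ± 554 and 1031 ± 254 in the PBS, mono-IL10 and IL10/2-Trikine groups. Cldn5, the tight junction claudin of endothelium, was found in 68.4% of the cells against 0.0169% of the tumor epithelial gate, whose median depth of 16872 UMIs was higher than the 9216.5 of the endothelial cells. The gate levels closest to those of the endothelial cells were Fli1 at 220 and Cd93 at 192 in the macrophage gate and Ecscr at 69.2 in the tumor epithelial gate, against 320, 1010 and 410 in the endothelial cells over all mice.

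**Figure D1:**
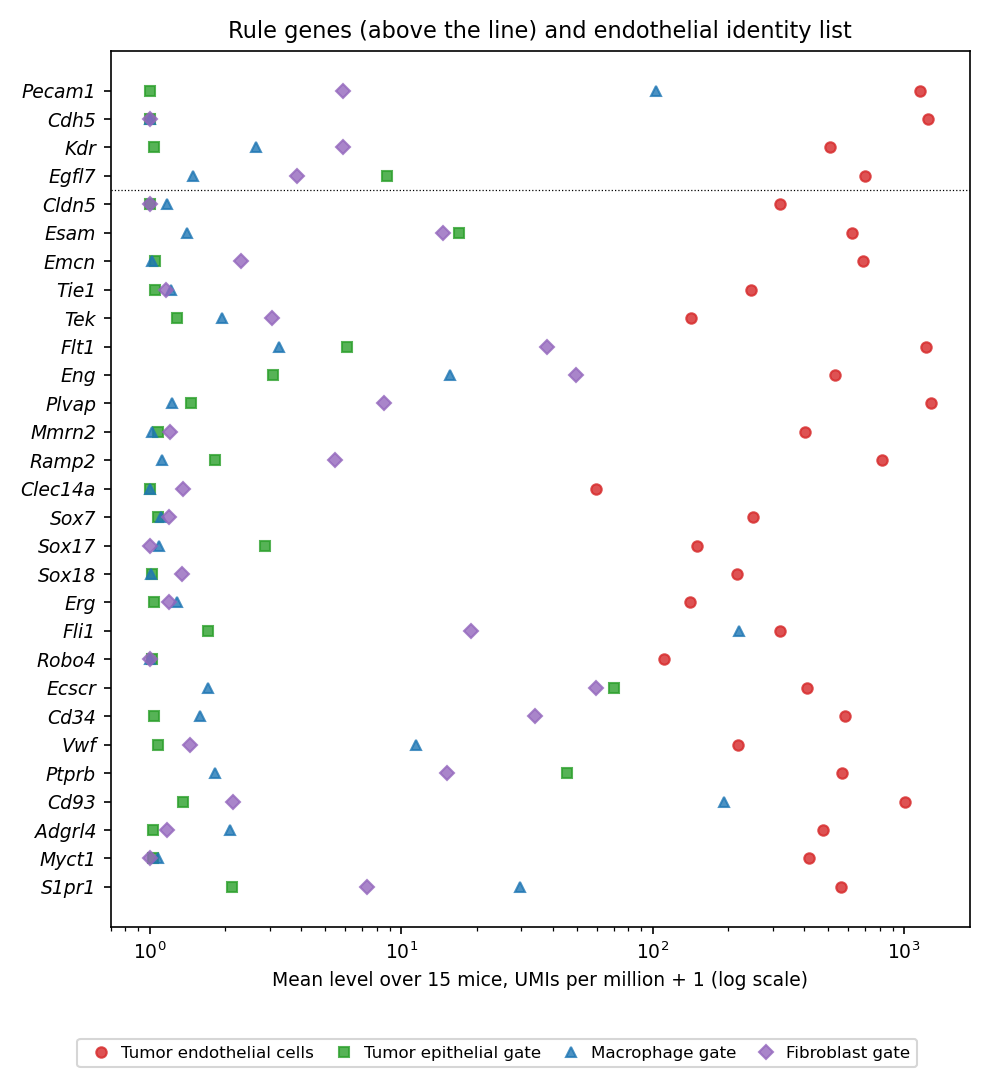
Mean level over 15 mice (CPM plus 1, log scale) of the 4 rule genes and the 25 genes of the endothelial identity list in the tumor endothelial cells and in 3 reference gates. The endothelial cells sit to the right of every gate for each gene, with the narrowest gaps at Fli1 and Cd93, which the macrophage gate also held. Cdh5 is absent from every gate, and Pecam1 from the epithelial gate, because the gates were set without them.

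Transcripts of most other cell types were sparse. The epithelial, macrophage and fibroblast lists include Krt8 and Krt18, the C1q genes and Col1a2, which the rule capped and the gates required. The gaps between the endothelial cells and those gates are therefore partly set by selection. Of 11 epithelial genes Tff1 and Tff2 were at 0, and the summed list ranged from 0 to 50.1 CPM over the mice against a mean of 5452 in the tumor epithelial gate. The summed macrophage list, with 11 of 11 genes detected, ranged from 102 to 297 in PBS, from 51.1 to 178 in mono-IL10 and from 29.7 to 257 in IL10/2-Trikine, against 19434 in the macrophage gate. T or NK cell genes reached at most 13.5, with Cd3e, Ncr1 and Klrd1 at 0, and of the B cell genes only Cd79a was seen. Neutrophil genes differed in range, from 0 to 174 in PBS, from 0 to 5.11 in mono-IL10 and from 0 to 497 in IL10/2-Trikine, led by S100a8 at means of 23.7, 0 and 121 and joined by S100a9, and the macrophage gate held 874 over that list. Dendritic cell genes had Flt3, Xcr1 and Cd209a at 0, mast cell genes had Cpa3, Tpsb2 and Fcer1a at 0, and platelet genes summed to at most 81.5. The remaining gene of the mast cell list, the receptor Kit, was present at 94.8 ± 31.7 in PBS, 112 ± 24.4 with mono-IL10 and 71.8 ± 52.7 with IL10/2-Trikine, above the 14.3 of the macrophage gate. Erythroid genes were at 0 apart from mono-IL10 mice, where they reached 573. Pericyte or smooth muscle genes ranged from 29.7 to 620 and fibroblast genes from 0 to 147, with Lum and Pdgfra at 0. The feature TRP1_Low_beta, read as a transgene whose source was not established here, had 0 UMIs in the endothelial cells. It had 0 in the tumor epithelial gate as well and stood at 0.0935 CPM in the macrophage gate. It therefore did not tell endothelial from tumor epithelial cells.

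The cells were not alike. Clustering of the 310 cells into 4 groups, made as a description with no test, gave a group of 136 cells led by Robo1, Ptn, Kcne3, Igfbp3 and Esm1, in which the summed tip list stood at 2043 CPM against 868 in the other cells. A group of 123 cells was led by the chemokine Cxcl12, by Ubd and by the adhesion molecules Sele, Selp and Vcam1 together with Fbln5, Sema3g and Fabp4. It mixed venous, arterial and capillary genes and was left unnamed, with a summed capillary list of 10259 against 3448. The group of 136 cells held 37.2% of PBS, 55.6% of mono-IL10 and 42.4% of IL10/2-Trikine cells, and that of 123 cells 39.4%, 33.3% and 43.1%. The latter held 34 cells of IL10/2-Trikine mouse 1 but 6 of mouse 2. The part of this make-up in the list medians below was not tested. A lymphatic-like group of 39 cells was led by Ccl21a, the chemokine of lymphatic vessels, and by Mmrn1, Lyve1 and Reln, with a summed lymphatic list of 11409 against 84.4. A last group of 12 cells, 6 from PBS, 1 from mono-IL10 and 5 from IL10/2-Trikine mice, carried macrophage transcripts, at 3169 over the macrophage list against 144 in the other cells, and also S100a8 and S100a9, and results that rest on it are given with and without it.

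The share of endothelial cells among a mouse's barcodes did not differ between treatments beyond the spread of the mice. It was 0.233%, 0.756%, 0.758%, 0.252% and 0.335% in the 5 PBS mice, 0.406%, 0.526%, 0.267%, 0.271% and 0.508% in the mono-IL10 mice, and 0.580%, 0.575%, 0.480%, 0.314% and 0.820% in the IL10/2-Trikine mice. The 3 ranges overlapped, and 2 PBS mice lay well above the other 3. Means were 0.467 ± 0.268% in PBS, 0.396 ± 0.125% with mono-IL10 and 0.554 ± 0.184% with IL10/2-Trikine. By two-sided exact permutation tests over the mice the difference was 0.0866 percentage points for IL10/2-Trikine against PBS (p = 0.524, adjusted p = 0.556), -0.0715 for mono-IL10 against PBS (p = 0.556, adjusted p = 0.556) and 0.158 for IL10/2-Trikine against mono-IL10 (p = 0.143, adjusted p = 0.429), where the smallest p the design allows is 0.00794.

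These differences depended on single mice. That of IL10/2-Trikine from PBS ran from 0.0201 without IL10/2-Trikine mouse 5 to 0.159 without PBS mouse 3, and that between the treatments from 0.0916 without IL10/2-Trikine mouse 5 to 0.218 without IL10/2-Trikine mouse 4. The sign of the mono-IL10 difference rested on single PBS mice, since it was 0.000741 without PBS mouse 2 and 0.00130 without PBS mouse 3. Counted against fibroblasts of the same tumors, as a log2 ratio with 0.5 added to both counts, endothelial cells stood at -0.96 ± 0.44 in PBS, -1.50 ± 0.79 with mono-IL10 and -1.002 ± 0.42 with IL10/2-Trikine. Compared with PBS, IL10/2-Trikine then stood at -0.04 (exact permutation test, adjusted p = 0.802). Several settings moved these differences by more than 1.5 times, and 0 comparisons passed under them. For IL10/2-Trikine against PBS the difference was 0.132 with the strict gate, 0.0140 with at least 0.8 of antibody UMIs in a hashtag, 0.216 with the epithelial gate taken out of the denominator, and 0.0302 with barcodes thinned to 4000 UMIs before the gate, an alternative chosen after seeing the data that sets the libraries to 1 depth. That thinning left out the shallower barcodes, 3729 of 19227 in PBS, 2486 of 17092 in mono-IL10 and 8306 of 24032 in IL10/2-Trikine. For mono-IL10 against PBS the difference was -0.0192, -0.0307, -0.0363 and -0.147 under the same settings, and -0.0389 without the group with macrophage transcripts. Between the treatments it was 0.0447 with the hashtag rule and 0.252 with the other denominator, while thinning left it at 0.178. Bead isolation can set the share of cells that it was meant to remove, and its part in these values was not tested.

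**Figure D2:**
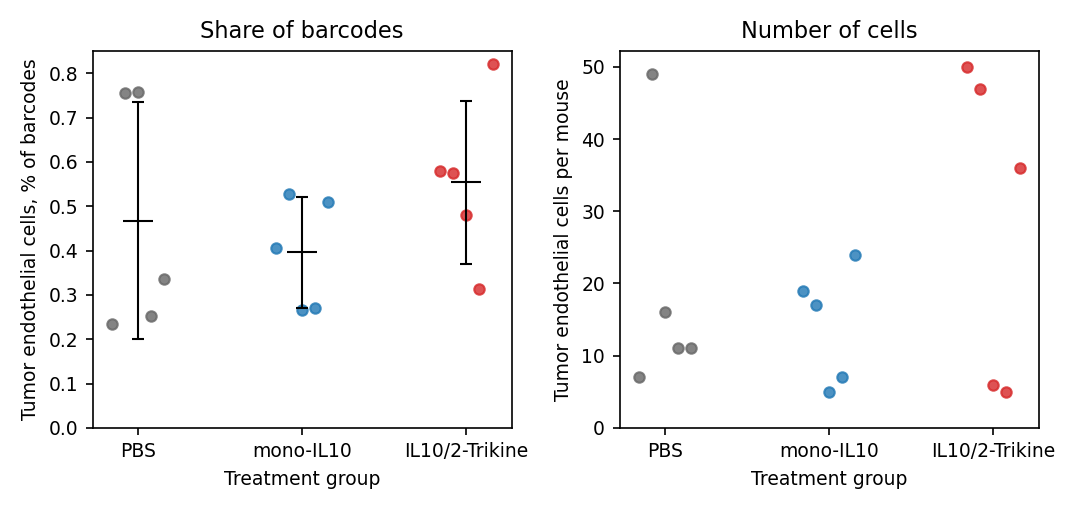
Tumor endothelial cells in each mouse by treatment, as percent of the mouse's filtered barcodes (left, points with mean ± SD) and as number of cells (right). The shares of the 3 groups overlap between 0.314% and 0.526%, and the numbers run from 5 to 50 cells per mouse.

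Growth and position along the vessel tree were read from 6 gene lists, as the share of a mouse's cells with at least 2 UMIs over the list after each cell had been thinned to 2000 UMIs. Capillary genes were the most widespread, in 260 of 306 cells (85.0%), followed by tip genes in 181 (59.2%), venous genes in 125 (40.8%), arterial genes in 104 (34.0%), cycling genes in 72 (23.5%) and lymphatic genes in 41 (13.4%). In the tumor epithelial gate thinned the same way the shares were 1.32% for the capillary list, 5.30% for tip, 13.3% for venous, 1.63% for arterial, 0.0170% for lymphatic and 40.0% for cycling. Macrophages, at a median depth of 5992.5 UMIs, reached 40.0% for the tip list and 14.3% for the lymphatic list, which hold Cxcr4 and Pdpn, genes that macrophages also expressed here at 593 and 288 CPM. Before thinning the shares in the endothelial cells were 95.8%, 89.4%, 88.1%, 76.8%, 41.9% and 30.6% for capillary, tip, venous, arterial, cycling and lymphatic.

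Over mice the tip share was 49.7 ± 17.4% in PBS, 66.0 ± 19.3% with mono-IL10 and 53.2 ± 26.7% with IL10/2-Trikine, and the capillary share 84.2 ± 13.9%, 81.6 ± 13.2% and 87.4 ± 9.01%. The lymphatic share was 18.3 ± 21.0% in PBS, where it ran from 0% to 50% between mice, 11.1 ± 6.56% with mono-IL10 and 11.2 ± 8.85% with IL10/2-Trikine. None of the 18 comparisons passed, with a lowest adjusted p of 0.143 in exact permutation tests. That value belonged to the arterial list, at 14.3% to 36.4% in the PBS mice and 36.8% to 54.2% in the mono-IL10 mice, which did not overlap (means 26.5 ± 9.70% and 44.2 ± 6.73%, unadjusted exact permutation p = 0.00794). Averaged over 50 thinnings, an alternative chosen after seeing the data, the arterial means were 29.6 ± 12.9% and 37.8 ± 7.93%, and the unadjusted exact permutation p was 0.254.

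**Figure D3:**
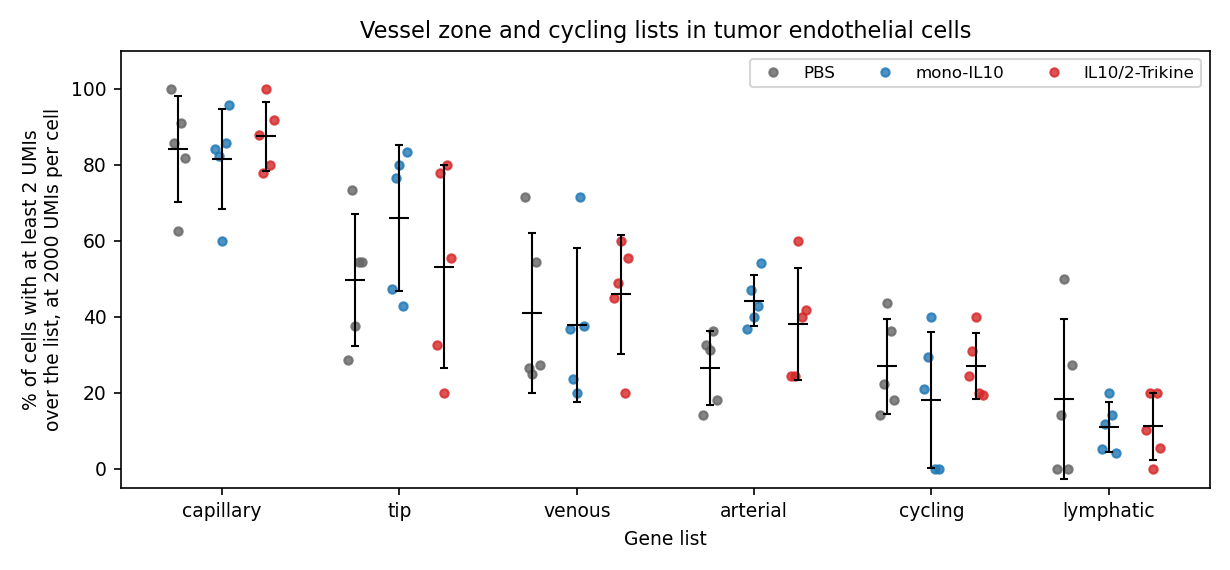
Percent of a mouse's tumor endothelial cells with at least 2 UMIs over each of 6 gene lists, after thinning to 2000 UMIs per cell, by treatment (points are mice, bars mean ± SD, 5 mice per group). The capillary list is highest and the lymphatic list lowest in each group, and the groups overlap for each list except PBS and mono-IL10 for the arterial list.

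Gene by gene, the endothelial cells of IL10/2-Trikine mice differed from those of mono-IL10 mice in 2 genes. Cxcl2, a neutrophil-attracting chemokine, was higher, and Gdf15, a secreted stress-response factor of the TGF-beta family, was lower. Against PBS, 0 genes passed in either treatment. The share of genes called was 0.0397% for IL10/2-Trikine against mono-IL10 and 0% for both comparisons with PBS. In edgeR 389 genes had an unadjusted p under 0.05 for IL10/2-Trikine against mono-IL10, 332 for IL10/2-Trikine against PBS and 341 for mono-IL10 against PBS. DESeq2 on the same sums called 3 genes higher and 11 lower, 14 higher and 5 lower, and 0 in these comparisons. It gave an adjusted p to 852, 852 and 17013 genes in the same order. For IL10/2-Trikine against mono-IL10 it gave neither Cxcl2 nor Gdf15 an adjusted p.

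Cxcl2 stood at 20.3, 92.3, 91.8, 70.6 and 151 CPM in the 5 PBS mice, at 30.7, 20.4, 0, 0 and 11.7 in the mono-IL10 mice and at 199, 153, 59.4, 0 and 98.1 in the IL10/2-Trikine mice. The mono-IL10 mice were low throughout, and all but 1 IL10/2-Trikine mouse lay above them, the exception being mouse 4 with 5 cells and no Cxcl2 UMI. The log2 fold change was 3.03 ± 0.50 (SE; edgeR, adjusted p = 0.0206), from 146 UMIs in IL10/2-Trikine and 25 in mono-IL10. Macrophage transcripts moved with it: all 12 cells of the group with macrophage transcripts held Cxcl2, and without them 75, 18 and 63 UMIs were left in IL10/2-Trikine, mono-IL10 and PBS, of 146, 25 and 142. Levels were then 60.8 ± 72.5, 8.48 ± 13.4 and 41.0 ± 29.5, and Cxcl2 no longer passed the filter on low counts. In the macrophage gate Cxcl2 stood at 5035 ± 757 in IL10/2-Trikine, 5581 ± 1044 in mono-IL10 and 6852 ± 1289 in PBS. Neutrophil transcripts moved with Cxcl2 as well, and in a wider range, with summed list means of 45.2 in PBS, 1.41 with mono-IL10 and 228 with IL10/2-Trikine against 212, 105 and 176 for the macrophage list. The 12 cells held S100a8 at a mean of 1587 and S100a9 at 1237, each in 4 of them, against at most 103 and 69.1 in the other groups of cells. The part of macrophage and neutrophil RNA in the Cxcl2 difference was otherwise not tested.

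Gdf15 stood at 35.8, 72.8, 228, 84.3 and 141 in the mono-IL10 mice, at 20.3, 5.17, 0, 37.8 and 15.1 in the IL10/2-Trikine mice and at 30.5, 41.7, 58.4, 29.4 and 68.6 in the PBS mice. The first 2 of these groups overlapped by 1 mouse on each side. The log2 fold change of IL10/2-Trikine against mono-IL10 was -3.06 ± 0.54 (SE; edgeR, adjusted p = 0.0268), from 13 and 166 UMIs. Gdf15 was carried by few cells and mostly by lymphatic-like ones, in 19 of 39 of which it was found. Without that group 63 of the 166 mono-IL10 UMIs remained, but only 3 of the 13 IL10/2-Trikine UMIs. The mono-IL10 mice then averaged 27.4 ± 45.9, with a median of 6.58 and the highest mouse at 108. For the IL10/2-Trikine mice the average was 15.3 ± 30.3, the median 3.27 and the highest mouse 69.4. Both averages leaned on the highest mouse, so the size of the remaining difference cannot be read from them. Gdf15 no longer passed the filter on low counts.

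Both calls rested on single mice and on the settings. Over all alternatives that gave a value, the log2 fold change ran from 2.73 to 3.70 for Cxcl2 and from -4.72 to -2.57 for Gdf15, and the highest adjusted p by edgeR was 0.986 and 0.236. The adjusted p of Cxcl2 by edgeR was 0.0581 without mono-IL10 mouse 5, 0.0955 without IL10/2-Trikine mouse 1 and 0.125 without IL10/2-Trikine mouse 2. For Gdf15 it was 0.0657, 0.0955 and 0.236 without the same mice and 0.134 without IL10/2-Trikine mouse 5. The number of genes called for IL10/2-Trikine against mono-IL10 was 0 without mono-IL10 mouse 5, IL10/2-Trikine mouse 1 or IL10/2-Trikine mouse 2, 1 without IL10/2-Trikine mouse 5, 2 without PBS mouse 5, and 4 or 5 without any other mouse.

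**Figure D4:**
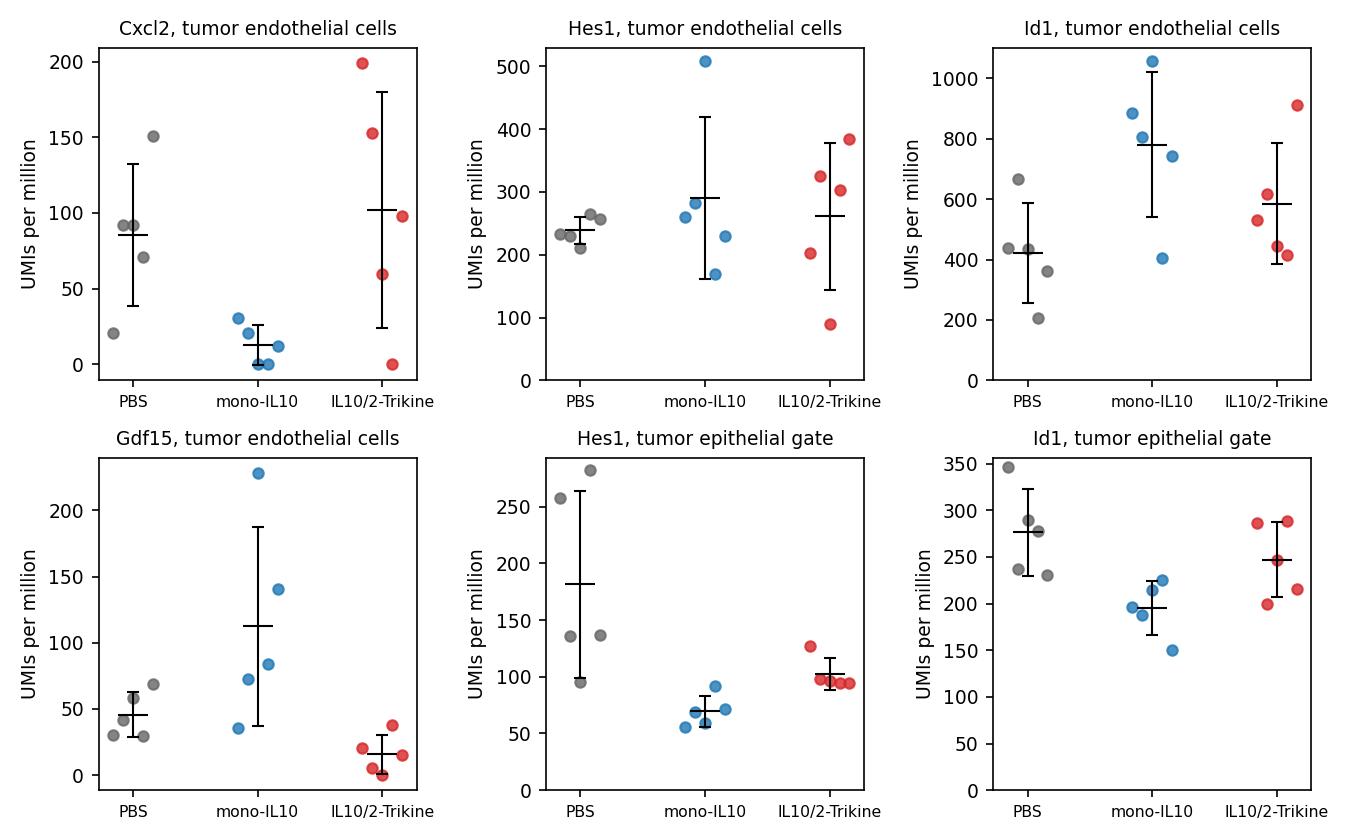
Levels per mouse (CPM of the mouse's summed cells, points, with mean ± SD of 5 mice) of Cxcl2 and Gdf15 in tumor endothelial cells, and of Hes1 and Id1 in tumor endothelial cells and in the tumor epithelial gate. Cxcl2 is lowest and Gdf15 highest in mono-IL10, and Hes1 and Id1 are lower in the epithelial gate of mono-IL10 mice than of PBS mice but not in the endothelial cells.

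Receptor genes were examined because mono-IL10 joins the chains encoded by Il10ra and Il10rb, and IL10/2-Trikine adds that of Il2rb through an interleukin-2 arm made unable to bind the common gamma chain. Il2rg, which encodes that gamma chain, and Il2ra belong to the receptor of natural interleukin-2 and were read as part of the same list. In the endothelial cells 3 UMIs of Il10ra, 3 of Il2rb and 0 of Il2ra were counted, against 117, 146 and 63 CPM in the macrophage gate. Il2rg was found in 54.8% of the cells, at 121 ± 24.4 in PBS, 95.5 ± 26.6 with mono-IL10 and 104 ± 42.2 with IL10/2-Trikine, and Il10rb stood at 23.1 ± 14.3, 26.4 ± 17.4 and 12.7 ± 15.97. In the reference cells Il2rg was found in 4.73% of the tumor epithelial gate, the deeper of the gates, and in 43.8% of the macrophage gate. Among the 30 genes of the receptor, JAK, STAT and SOCS list 20 were tested and 0 called in each comparison, and the 3 most abundant were Jak1, Socs3 and Stat3. Stat3, the transcription factor that acts below interleukin-10, stood at 332 ± 79.8, 271 ± 68.1 and 273 ± 38.5 in PBS, mono-IL10 and IL10/2-Trikine, and Socs3, a feedback inhibitor that it induces, at 316 ± 97.8, 326 ± 97.7 and 370 ± 147.

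Interferon-gamma response genes held 0 called genes in any comparison, with 17 of 24 tested. Their median log2 fold change was 0.71 for IL10/2-Trikine against PBS, with 16 of 17 above 0, and 0.70 for mono-IL10 against PBS, again with 16 of 17 above 0, beside medians over all genes of -0.04 and -0.01. These comparisons share the PBS mice. Against each other the treatments had a median of 0.02. Of the 17 genes 4, 5 and 0 had an unadjusted p under 0.05 in edgeR for IL10/2-Trikine against PBS, mono-IL10 against PBS and between the treatments, beside 332, 341 and 389 of the 5043 genes. Cxcl9, a T cell-attracting chemokine, stood at 88.6 ± 93.8 in PBS, 381 ± 409 with mono-IL10 and 214 ± 116 with IL10/2-Trikine. Iigp1, an interferon-induced GTPase, stood at 133 ± 100.1, 200 ± 97.9 and 278 ± 157, and Irf1, a transcription factor of the pathway, at 90.5 ± 34.6, 147 ± 62.6 and 173 ± 54.2. The ranges of the 3 groups overlapped for each of these genes.

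The other interferon and antigen presentation lists had 0 called genes as well. Of the type I interferon list 8 of 19 genes were tested, with median log2 fold changes of 0.67 for IL10/2-Trikine against PBS, 0.26 for mono-IL10 against PBS and 0.59 for IL10/2-Trikine against mono-IL10. Its most abundant gene, Bst2, an antiviral tether, stood at 455 ± 74.8 in PBS, 557 ± 168 with mono-IL10 and 584 ± 283 with IL10/2-Trikine. Of the MHC class I list 12 of 13 were tested, with medians of 0.40, 0.31 and 0.17. In the same order 3, 0 and 0 type I interferon genes and 3, 1 and 0 class I genes had an unadjusted p under 0.05 in edgeR. B2m, the light chain of class I molecules, stood at 3751 ± 880, 4795 ± 1152 and 4231 ± 947, and H2-K1, a heavy chain, at 1047 ± 247, 1087 ± 333 and 1371 ± 399. MHC class II genes were near absent, with 0 of 7 tested and Cd74, the invariant chain, at group means of 25.2 to 28.9 against 4662 in the macrophage gate.

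Lipid uptake genes had a median log2 fold change of 0.79 when IL10/2-Trikine was compared with PBS and 0.72 when compared with mono-IL10, and of 0.07 for mono-IL10 against PBS, with 7 of 10 tested and 0 called. Cd36, the fatty acid transporter, stood at 395 ± 129 in PBS, 326 ± 248 with mono-IL10 and 920 ± 602 with IL10/2-Trikine, where it ran from 367 to 1912 between mice. Gpihbp1 stood at 369 ± 184, 932 ± 309 and 433 ± 161, and Fabp4, a fatty acid binding protein, at 2183 ± 435, 2174 ± 1219 and 3661 ± 3107. Of the 7 tested genes 7 had a fitted log2 fold change above 0 for IL10/2-Trikine relative to PBS, 6 relative to mono-IL10 and 5 for mono-IL10 relative to PBS, with 3, 4 and 1 at an unadjusted p under 0.05 in edgeR. Over all 5043 genes those numbers were 332, 389 and 341, and the medians were -0.04, -0.03 and -0.01. These comparisons share samples pairwise. Of the 3 genes named, Cd36 and Fabp4 had their highest mean in IL10/2-Trikine and Gpihbp1 in mono-IL10.

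Of 14 cycling genes 11 were tested and 0 called, with medians of -0.74 for IL10/2-Trikine against PBS, -0.83 for mono-IL10 against PBS and -0.02 between the treatments. An unadjusted p under 0.05 in edgeR was given to 0, 3 and 0 of the 11. Both comparisons with PBS use the same 5 PBS mice, of which mice 3 and 4 had 43.8% and 36.4% of cells with cycling genes. Top2a, the topoisomerase of dividing cells, stood at 204 ± 92.7 in PBS, 114 ± 105 with mono-IL10 and 89.0 ± 55.3 with IL10/2-Trikine. Pclaf, a replication factor, stood at 162 ± 66.2, 88.6 ± 52.3 and 115 ± 29.9. The share of cells with cycling genes was 27.0 ± 12.5% in PBS, 18.1 ± 17.8% with mono-IL10 and 27.0 ± 8.64% with IL10/2-Trikine. Averaged over 50 thinnings it was 27.8 ± 13.4%, 18.1 ± 9.63% and 24.7 ± 5.05%, and the groups overlapped.

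**Figure D5:**
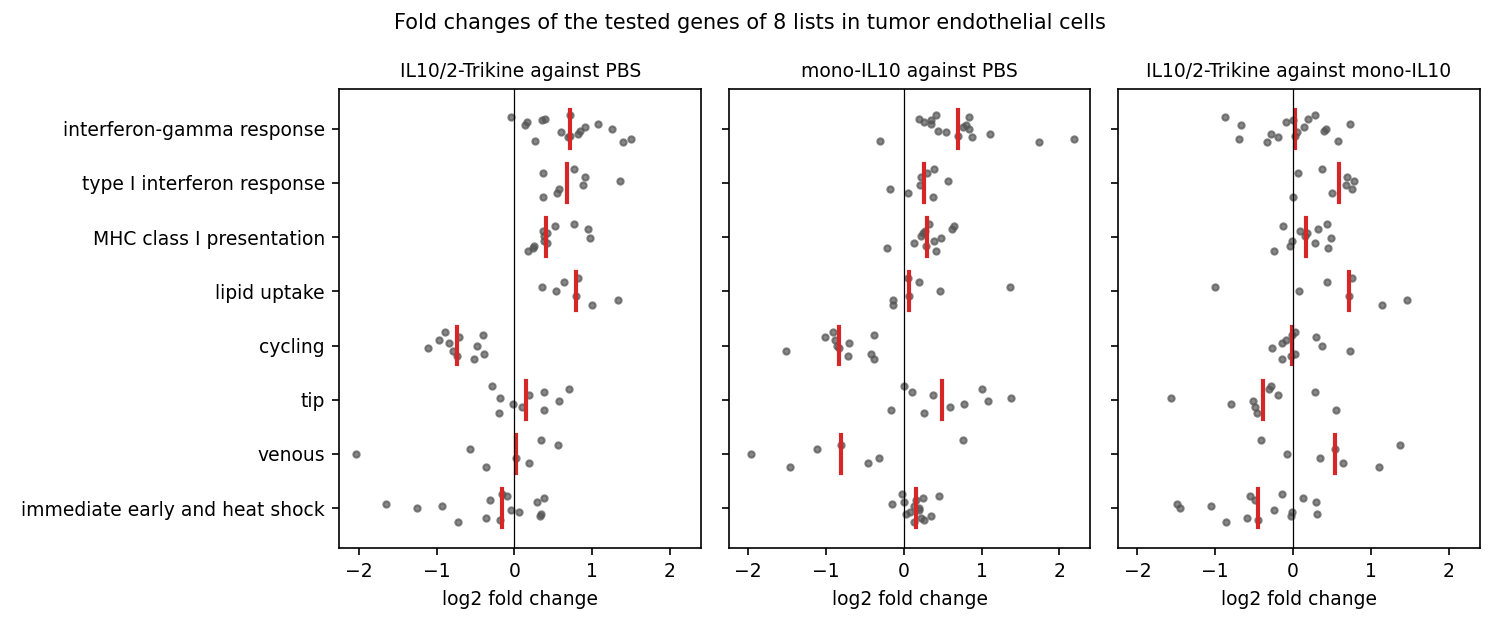
Log2 fold changes in tumor endothelial cells of the tested genes of 8 lists in the 3 comparisons (grey points are genes, red bars list medians, the black line is 0). In both comparisons with PBS, which share the PBS mice, the interferon-gamma list lies right of 0 and the cycling list left of it, while 0 genes of the lists shown passed the adjusted threshold.

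The genes of vessel growth and zones were described by group, again with 0 called in each list. The tip list had a median of 0.49 for mono-IL10 against PBS, 0.14 for IL10/2-Trikine against PBS and -0.38 between the treatments. Dll4, the Notch ligand of tip cells, stood at 156 ± 66.0 in PBS, 262 ± 39.9 with mono-IL10 and 140 ± 54.9 with IL10/2-Trikine, and Angpt2, which loosens vessels, at 191 ± 108, 228 ± 86.7 and 152 ± 41.5. The venous list had a median of -0.81 for mono-IL10 against PBS, with 1 of 7 genes above 0, of 0.03 for IL10/2-Trikine against PBS, with 4 above 0, and of 0.54 between the treatments, with 5 above 0. In that order 3, 0 and 2 of the 10 tip genes and 3, 1 and 2 of the 7 venous genes had an unadjusted p under 0.05 in edgeR. Selp, the P-selectin on which leukocytes roll, stood at 374 ± 227, 143 ± 137 and 296 ± 328, while Vwf, the clotting factor stored by endothelium, stood at 172 ± 81.9, 263 ± 164 and 219 ± 78.3. Arterial medians lay between -0.08 and 0.06 and lymphatic medians between -0.32 and 0.14, and Ccl21a ran from 0 in the lowest mouse of each group to 10394 in the highest mouse.

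Signaling lists lay close to the medians of all genes. For VEGF, angiopoietin and apelin genes, with 13 of 16 tested, medians were 0.04, -0.10 and -0.09 for IL10/2-Trikine against PBS, mono-IL10 against PBS and IL10/2-Trikine against mono-IL10. That list includes Kdr, a gene of the rule, and the part of the rule in its level at different depths was not tested. Nrp2, a co-receptor of lymphatic and venous cells, stood at 348 ± 154, 312 ± 128 and 442 ± 265 in PBS, mono-IL10 and IL10/2-Trikine. Notch genes, with 9 of 12 tested, had medians of -0.00, 0.17 and -0.17, and TGF-beta and BMP genes, with 10 of 13 tested, 0.16, 0.04 and 0.01. Id3 and Id1, targets of BMP signals, were the most abundant of the last list, with Id3 at 528 ± 172, 726 ± 93.2 and 632 ± 135.

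Junction, adhesion and matrix genes were likewise uncalled, apart from Cxcl2 in the chemokine list. The junction list, with 16 of 17 tested, had medians of 0.05, 0.02 and 0.05, and the leukocyte adhesion list, with 12 of 14 tested, -0.03, -0.04 and 0.01. The junction list includes Cdh5 and the adhesion list Pecam1, both genes of the rule. Of the chemokine list 8 of 16 were tested, with medians of 0.42, -0.17 and 0.67. Cxcl12, which retains leukocytes, stood at 191 ± 128 in PBS, 169 ± 223 with mono-IL10 and 393 ± 211 with IL10/2-Trikine, and Il6 at 193 ± 104, 176 ± 158 and 226 ± 99.6. All 20 basement membrane and matrix genes were tested, with medians of -0.00, 0.17 and -0.13, and Col4a1, the collagen of basement membranes, stood at 3452 ± 757, 3468 ± 367 and 3461 ± 867.

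Genes induced by stress and by the handling of cells were described last. The immediate early and heat shock list, with all 15 tested and 0 called, had medians of -0.16 for IL10/2-Trikine against PBS, 0.16 for mono-IL10 against PBS and -0.44 for IL10/2-Trikine against mono-IL10. An unadjusted p under 0.05 in edgeR was given to 3, 2 and 6 of the 15. Hspb1, a small heat shock protein, stood at 1598 ± 1333 in PBS, 1371 ± 672 with mono-IL10 and 477 ± 194 with IL10/2-Trikine, and Fos at 1692 ± 495, 1692 ± 472 and 1760 ± 581. The group low in Hspb1 was also the library of lowest depth, and the part of depth was not tested. The hypoxia and glycolysis list, with 9 of 16 tested, had medians of -0.12, 0.26 and -0.28, and the flow and coagulation list, with 11 of 13 tested, -0.06, 0.10 and -0.20. Of the 20 matrix genes 4 had an unadjusted p under 0.05 in edgeR between the treatments, and the signaling, junction, adhesion, chemokine, hypoxia and flow lists held 3 or fewer in each comparison.

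Whether a treatment difference in endothelial cells differed from that in other cells of the same mice was tested as an interaction in edgeR, with the mouse as a block. Against the tumor epithelial gate 1 of 11948 genes passed for IL10/2-Trikine against PBS (0.00837%), 4 for mono-IL10 against PBS (0.0335%) and 27 for IL10/2-Trikine against mono-IL10 (0.226%). Against the macrophage gate 58 of 10288 passed (0.564%), 56 (0.544%) and 103 (1.0%). The larger part of these genes stood under 50 CPM in the endothelial cells or in the gate, and 0, 2 and 4 against the epithelial gate and 8, 20 and 10 against the macrophage gate reached 50 CPM in both, a level chosen after the values were seen. Genes named from them, here and below, were likewise chosen after their values were seen. An interaction can also come from a change in the gate. For IL10/2-Trikine against mono-IL10 the called genes Lcp1 and Fli1 had log2 fold changes of 1.66 and 2.27 in the epithelial gate. In the endothelial cells they had -0.38 and 0.31. Clu and Nid1 had 2.82 and 2.45 in the macrophage gate and -0.11 and -0.07 in the endothelial cells. For Cxcl2 and Gdf15 the larger change, 3.03 and -3.06, was in the endothelial cells.

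Hes1, a transcription factor induced by Notch, was lower in the epithelial gate of mono-IL10 mice and not in their endothelial cells. It stood at 234, 229, 211, 265 and 256 in the endothelial cells of PBS mice and at 261, 282, 509, 169 and 231 in those of mono-IL10 mice, which overlapped. In the epithelial gate it was 258, 136, 95.3, 282 and 137 in PBS and 55.3, 69.2, 59.6, 91.5 and 71.4 in mono-IL10, with no overlap. The interaction was 1.48 ± 0.28 on the log2 scale (SE; edgeR, adjusted p = 0.0171), with an adjusted p of 0.0561 without PBS mouse 4 and of 0.0865 with the strict gate (interaction 1.11). Hes1 was lower in the macrophage gate too, with a log2 fold change of -1.41 ± 0.20 (SE; edgeR, adjusted p = 6.8e-05). The interaction against that gate was 1.64 ± 0.25 (SE; edgeR, adjusted p = 0.0006).

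Id1, an inhibitor of differentiation factors, had means that lay in opposite orders in the 2 cell types. In endothelial cells it stood at 437, 667, 437, 206 and 361 in PBS and 885, 806, 1059, 406 and 745 in mono-IL10. In the epithelial gate it stood at 347, 237, 290, 278 and 231 in PBS and 196, 188, 215, 225 and 151 in mono-IL10. The interaction was 1.38 ± 0.27 (SE; edgeR, adjusted p = 0.0193), with 0.0561 without PBS mouse 4. Cxcl2 and Tagln were also called in this comparison, at -3.17 ± 0.40 (edgeR, adjusted p = 6.2e-06) and -3.97 ± 0.80 (edgeR, adjusted p = 0.0306). Without the 12 cells with macrophage transcripts the calls of this comparison were 2 genes higher and 0 lower. The count of 4 genes in this comparison was 35 without PBS mouse 2, 27 without mono-IL10 mouse 3, 11 without mono-IL10 mouse 1 and 8 without mono-IL10 mouse 2. Of the other counts against the epithelial gate, the 1 gene became 0 without IL10/2-Trikine mouse 1 and 2 without IL10/2-Trikine mouse 2 or 5, and the 27 became 11 without IL10/2-Trikine mouse 1 and 17 without mono-IL10 mouse 5. Alcam, an adhesion molecule of activated cells, had an interaction of -1.52 ± 0.31 for IL10/2-Trikine against mono-IL10 (edgeR, adjusted p = 0.0106), at 40.6 ± 25.8 and 114 ± 35.1 in the endothelial cells and 578 ± 28.5 and 461 ± 36.9 in the epithelial gate. Without mono-IL10 mouse 5, IL10/2-Trikine mouse 2 or IL10/2-Trikine mouse 5 its adjusted p was 0.0613, 0.0625 and 0.0632. The Cxcl2 and Gdf15 differences between the treatments also differed from those in the epithelial gate, by 3.02 ± 0.41 (edgeR, adjusted p = 3.8e-05) and -2.51 ± 0.51 (edgeR, adjusted p = 0.00951). Without the 12 cells with macrophage transcripts the Cxcl2 interaction was 2.53 ± 0.58 (edgeR, adjusted p = 0.0429). The neutrophil genes S100a8 and S100a9 were called there too, with adjusted p of 0.00755 and 0.0368 by edgeR, and had 0.591 and 1 without the 12 cells. Without the lymphatic-like cells, which left IL10/2-Trikine mouse 4 and mono-IL10 mouse 3 with 4 cells and out of the fit, the Gdf15 interaction was -3.73 ± 0.93 (edgeR, adjusted p = 0.0581). For Gdf15 the adjusted p was 0.0765 without IL10/2-Trikine mouse 1 and 0.0783 without IL10/2-Trikine mouse 2.

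In the macrophage gate the compared differences were those of leukocytes of the same mice. Cd36 differed by 2.58 ± 0.41 for IL10/2-Trikine against PBS (edgeR, adjusted p = 0.000756), as it fell from 113 ± 51.4 to 38.4 ± 18.1 in the macrophage gate and stood at 395 ± 129 and 920 ± 602 in the endothelial cells. It also differed by 1.85 ± 0.40 for mono-IL10 against PBS (edgeR, adjusted p = 0.0207). Its log2 fold change there was -2.22 in the macrophage gate and -0.13 in the endothelial cells. Gja1, a gap junction connexin, differed by -3.16 ± 0.28 for mono-IL10 against PBS (edgeR, adjusted p = 2.74e-09). In the macrophage gate it ran from 5.74 to 15.4 in PBS and from 81.3 to 123 in mono-IL10, while in the endothelial cells it stood at 619 ± 132 and 739 ± 128. IL10/2-Trikine gave a Gja1 interaction of -3.27 ± 0.29 against PBS (edgeR, adjusted p = 5.82e-09). Cd9, a tetraspanin, differed by 1.19 ± 0.21 for mono-IL10 against PBS (edgeR, adjusted p = 0.00325). In endothelial cells it stood at 543 ± 89.8 with mono-IL10 and 450 ± 96.7 in PBS. In macrophages it stood at 194 ± 21.9 with mono-IL10 and 351 ± 30.3 in PBS. Alcam differed by 1.57 ± 0.30 for mono-IL10 against PBS (edgeR, adjusted p = 0.00639, and 0.0533 without mono-IL10 mouse 5). Its macrophage levels were 246 ± 29.1 with mono-IL10 and 442 ± 37.1 in PBS. Atf3, a stress-induced transcription factor, differed by -1.13 ± 0.23 for IL10/2-Trikine against mono-IL10 (edgeR, adjusted p = 0.00316). In endothelial cells it stood at 716 ± 201 with IL10/2-Trikine and 1287 ± 265 with mono-IL10. In macrophages it stood at 574 ± 41.2 with IL10/2-Trikine and 473 ± 70.8 with mono-IL10. The number of genes that differed from macrophages was 31 without IL10/2-Trikine mouse 5 for IL10/2-Trikine against PBS, and 33 and 26 without mono-IL10 mice 4 and 5 for mono-IL10 against PBS.

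The hashtag antibodies gave a readout other than RNA, of which the rule had used only how far 1 hashtag dominated. The hashtag reagents bind CD45 and MHC class I, and CD45 separates the gates by design through Ptprc. The comparison with macrophages was therefore partly set by the gates, and its test describes the size of the gap and is not a finding. The median endothelial cell carried 944 to 2775 hashtag UMIs over the 15 mice, against 2364 to 8083 in the macrophage gate and 1153.5 to 2708 in the epithelial gate. Endothelial cells were below the macrophages in 15 of 15 mice, by a mean log2 ratio of -1.23 ± 0.58 (SD, n = 15; exact sign-flip permutation test, p = 6.1e-05, the smallest it can give, adjusted p = 0.000122). Against the tumor epithelial gate the mean log2 ratio was -0.04 ± 0.32, above in 8 of 15 mice (exact sign-flip permutation test, p = 0.616).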

How the data were processed

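Gene and hashtag UMI counts of 3 treatment libraries (PBS, mono-IL10, IL10/2-Trikine) were taken as deposited. Per the file headers the authors made the raw UMI counts with Cell Ranger 9.0.1, and the submitters' processing notes name GRCm39, Seurat 5.1.0 and DESeq2 1.46.0. The authors' deposited table of cell annotations covers T and NK cells and was not used. Feature and barcode lists, deposited beside the counts, hold names only. Samples were grouped by the treatment in their titles, and mice by the hashtag that held at least 2/3 of a barcode's antibody UMIs. This removes doublets between mice only where neither cell gives most of the antibody UMIs, and does not remove doublets within a mouse. No doublet caller was run. The members and gene lists were chosen with earlier results of these data known.

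Counts were summed per mouse over its endothelial cells (26457 to 671707 UMIs per mouse) and fitted in edgeR 4.0.16 (R 4.3.3) with TMM factors and a filter on low counts (filterByExpr), all 3 groups in 1 fit. Genes were called at an adjusted p under 0.05, and the test was checked on simulated data. Of 34187 genes in the files 17021 had a UMI in these cells and 5043 were tested. Genes were named as the called ones with the smallest p, or else from the 3 most abundant of a list. Exceptions are those said to be chosen after their values were seen, the receptors of the agents, and genes that describe identity, other cell types and clusters. Shares and hashtag levels used exact permutation tests over the mice, and clusters came from k-means on 15 principal components in scikit-learn 1.9.0. Alternatives covered the gates, hashtag dominance, depth, normalization, DESeq2 1.42.0 and each mouse left out. No promoter sequence is shown, because no gene of the interferon or endothelial lists was called in the tests of endothelial cells alone. In the tests against the gates Fli1, Irf8 and Ecscr of those lists were among the genes called.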

Additional observations from a re-analysis of the deposited data

Results flagged for a closer look

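The number of endothelial cells was flagged in 1 PBS mouse, which had 49 against 16 in the next PBS mouse, beyond Dixon's 95% critical value of 0.71 for 5 values. Of 36 groups of mice examined this was the only such case, and chance flags about 1 in 20 groups. The flagged mouse, PBS mouse 2, also had the most filtered barcodes of its group, 6481 against 4358 in the next. Its share of 0.756% lay beside the 0.758% of PBS mouse 3 and was not flagged.

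The other flagged results are treatment differences that differed between cell types by a test of the difference itself. Against the tumor epithelial gate these were Hes1 (1.48) and Id1 (1.38) for mono-IL10 against PBS, and Alcam (-1.52), Cxcl2 (3.02) and Gdf15 (-2.51) for IL10/2-Trikine against mono-IL10, as log2 differences by edgeR. Against the macrophage gate they were Gja1 (-3.16), Cd9 (1.19) and Alcam (1.57) for mono-IL10 against PBS, Gja1 (-3.27) and Cd36 (2.58) for IL10/2-Trikine against PBS, and Atf3 (-1.13) for IL10/2-Trikine against mono-IL10. Other called differences, among them those of Cxcl2 and Cd36 for mono-IL10 against PBS, were not in the flagged set. Without the 12 cells with macrophage transcripts the Cxcl2 difference was 2.53 (adjusted p = 0.0429), and without the lymphatic-like cells that of Gdf15 was -3.73 (adjusted p = 0.0581), both by edgeR.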

How the results depend on the processing

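Calls in endothelial cells were few and moved with most choices. The number of genes called for IL10/2-Trikine against mono-IL10 (2 in the report) was 1 with the strict gate and 1 with at least 0.8 of antibody UMIs in a hashtag. With at least 2000 genes per barcode it was 2, and neither was Cxcl2 or Gdf15. With at least 10 cells per mouse it was 3, and Gdf15 was not among them. It was 68 with no filter on low counts and 14 with DESeq2, where 852 genes had an adjusted p. It was 0 with counts thinned to the smallest total or with only the 2 groups compared. For IL10/2-Trikine against PBS (0 in the report) it was 38 with no filter and 19 with DESeq2, again with 852 genes given an adjusted p. It was 6 with thinned counts, where 543 genes were tested. For mono-IL10 against PBS (0 in the report) it was 98 with no filter, 1 with the stricter hashtag rule and 1 with at least 10 cells per mouse. Without the group with macrophage transcripts, chosen after seeing the data, the counts were 1 for IL10/2-Trikine against PBS, 0 for mono-IL10 against PBS and 0 for IL10/2-Trikine against mono-IL10. The cause of these moves was not tested. Leaving out each mouse gave 0 to 1, 0 to 3 and 0 to 5 genes for IL10/2-Trikine against PBS, mono-IL10 against PBS and IL10/2-Trikine against mono-IL10, with 3 in the second without PBS mouse 1 and 1 in the first without PBS mouse 2 or mono-IL10 mouse 4. The same ranges were 0 to 2, 3 to 35 and 11 to 36 for the difference from the epithelial gate and 31 to 67, 26 to 73 and 84 to 142 for that from the macrophage gate. Without the group with macrophage transcripts, the differences from the epithelial gate numbered 2 for mono-IL10 against PBS, and without the lymphatic-like group 5 for IL10/2-Trikine against PBS and 14 for mono-IL10 against PBS. With the strict gate the differences from the epithelial gate numbered 4 for IL10/2-Trikine against PBS and 18 for mono-IL10 against PBS.

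The share of endothelial cells passed in 0 comparisons under any alternative. Its mono-IL10 difference from PBS ran from -0.130 to 0.00130 over mice left out, that of IL10/2-Trikine from PBS from 0.0201 to 0.159 and that between the treatments from 0.0916 to 0.218, and the IL10/2-Trikine difference from PBS turned to -0.0436 as a log2 ratio to fibroblasts. Of the 18 zone comparisons 0 passed under any alternative, although up to 7 changed sign. The hashtag ratio to macrophages, which the gates partly set, kept its direction and call throughout, and that to the epithelial gate ran from -0.0864 to 0.00253 over mice left out. No paired analysis was possible because hashtag numbers shared between libraries mark the antibody and not an animal. Depth limits the rest: 5 to 50 cells per mouse left 5043 of 17021 detected genes tested. Alternatives without the lymphatic-like group, with thinning before the gate and with 50 thinnings were also chosen after seeing the data.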
